A study of Caenorhabditis elegans with 45 samples.

Results

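The genes described here encode the subunits of the proteasome of *Caenorhabditis elegans*. They are the 33 of the 25985 genes in the deposited table whose names begin with *pas-* (7 genes), *pbs-* (7 genes), *rpt-* (6 genes) or *rpn-* (13 genes). They were chosen by name and not by any measured value, and all 33 were among the 16925 genes tested, which had a mean deposited value of at least 1.

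The proteasome degrades proteins that carry a ubiquitin chain. Its 20S core particle is a barrel whose outer rings are built from the alpha subunits (*pas* genes) and whose inner rings are built from the beta subunits (*pbs* genes), of which *pbs-1*, *pbs-2* and *pbs-5* carry the proteolytic active sites. The 19S regulatory particle caps the barrel, with a ring of ATPases (*rpt* genes) that unfold the substrate, and non-ATPase subunits (*rpn* genes) that hold the particle together, bind ubiquitin and remove it. In *C. elegans* the subunit genes are raised together by the transcription factor SKN-1A when the proteasome is impaired, and the lid subunit gene *rpn-6.1* is known from work on long-lived animals without a germline.

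The study sequenced RNA of whole worms from strains that are sterile under restrictive conditions. FEM animals carry *fem-3(q20)*, a gain-of-function allele that masculinizes the germline at the restrictive temperature, so that they hold a normal somatic gonad with sperm and no oocytes. GEM animals carry *gon-2(q388)* and *gem-1(bc364)*, which block the growth of the gonad incompletely, so that a degenerate and delayed gonad forms, and visibly fertile GEM animals were picked off before harvest. The 23 FEM and 22 GEM libraries, each from a pool of synchronized worms grown without a chemical sterilant, cover 9 ages in h post feeding. Adult day 1 was sampled at 41 and 49 h, day 2 at 65 and 73 h, and day 3 at 89 and 97 h, while days 4, 5 and 10 had a single time point, at 117, 137 and 257 h, with 2 or 3 libraries in each of the 18 groups. There is no fertile wild type among the samples, and both strains were kept at the restrictive temperature. In whole worms, fewer cells of a type and less RNA per cell cannot be told apart.

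Levels are given as log2(normalized count + 1), where the normalized count is the read count of a gene divided by a size factor of its library, and differences are differences of these values. The estimated depth was 12862995 to 43354980 reads assigned to genes per library. Over all 9 ages, the 9 sperm markers were all higher in FEM than in GEM, with *spe-38*, *spe-42* and *peel-1* at 0 in 4, 2 and 6 GEM libraries and in no FEM library. The mean level of the 11 oocyte markers lay between 8.40 and 10.88 in the FEM libraries and between 3.30 and 13.89 in the GEM libraries, where it was lowest at 41 h. It was not absent from FEM, in which *perm-2* and *perm-4*, which encode proteins of the eggshell, had median levels of 17.50 and 17.62, against 15.60 and 15.49 in GEM. These 2 genes raise the FEM mean of the list, and the other 9 had lower medians in FEM than in GEM, as *rme-2* with 8.25 in FEM and 11.38 in GEM. Embryo markers were low, with a mean level over 7 genes of at most 2.51 in FEM libraries and of 4.55 in GEM at 89 h replicate 3, the highest of the GEM libraries. That library was also the highest of its group in all 33 proteasome genes. The 2 GEM libraries at 49 h differed in these genes, with means of 10.60 and 11.19 without *rpn-6.2*. From 2 libraries it cannot be told which is unusual. The scale matters for comparisons between the strains: the median level of the genes tested, averaged over the libraries of a group, lay between 7.71 and 8.06 in FEM and between 6.90 and 7.65 in GEM, so counts of calls are also given after centering each library on its median and after quantile normalization.

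On average, proteasome subunit transcripts stayed near 1 level in FEM through 10 days of adulthood. In GEM they had a minimum on day 2 and then climbed to the highest levels in the study by day 10. The mean over the subunit genes other than *rpn-6.2*, which behaved differently, was 11.47, 11.71, 11.60, 11.60, 11.64, 11.69, 11.75, 11.53 and 11.54 in FEM from 41 to 257 h. In GEM it was 11.26, 10.90, 10.60, 10.97, 11.80, 11.63, 12.10, 12.48 and 12.65. On the deposited scale the FEM means thus stayed within a narrow band. The GEM means lay below it from 41 to 73 h, above it at 89 h, within it at 97 h and above it from 117 h on. The early order depended on the scale. After centering each library on its median, 1 subunit gene was called higher and 24 lower in FEM than in GEM on day 1. Among all genes tested, 24.3% were higher and 54.8% lower there.

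**Figure D1:**
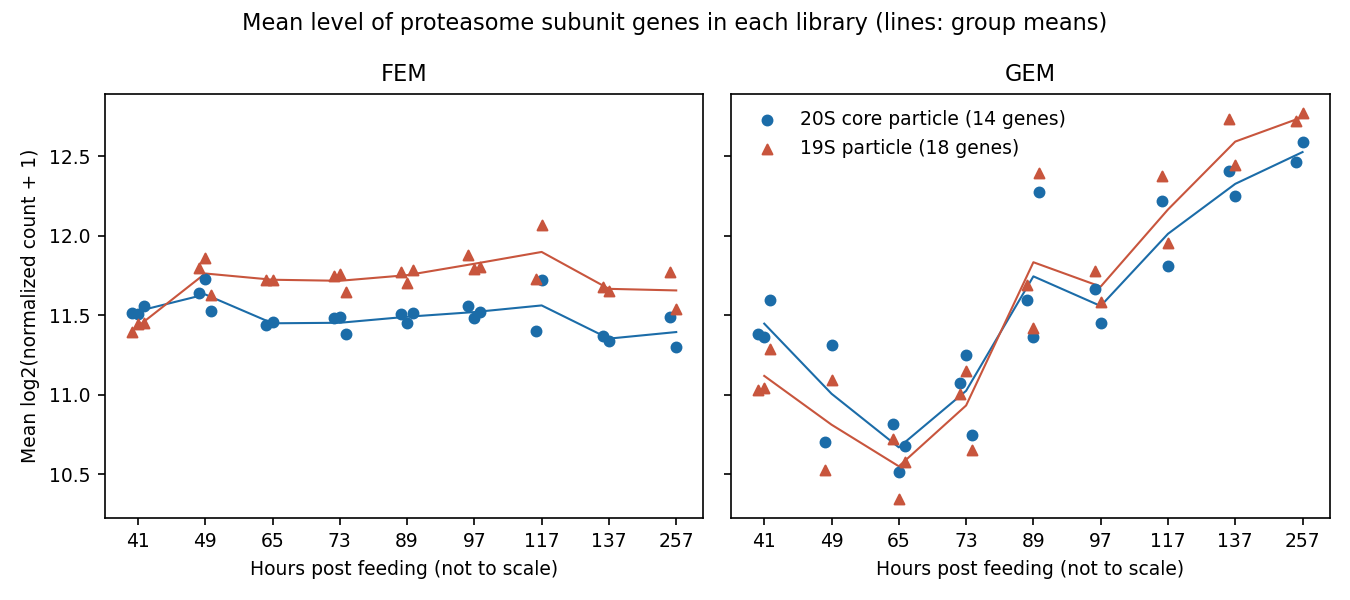
Mean log2(normalized count + 1) of the 14 genes of the 20S core particle (circles) and the 18 genes of the 19S particle without *rpn-6.2* (triangles) in each library, by hours post feeding, in FEM (left) and GEM (right), with lines through the group means. FEM stays between 11.3 and 12.1, and GEM has its minimum at 65 h and its maximum at 257 h.

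An effect of age among the 9 time points (limma's moderated F, adjusted p under 0.05 with Benjamini-Hochberg adjustment over all genes tested) was called for 4 of the 33 genes in FEM, where 64.6% of all genes tested were called, and for 33 of 33 in GEM, where 84.5% were called. The 4 genes in FEM were *rpn-6.2*, *rpn-10*, *rpn-8* and *rpt-1*, and no 20S gene was among them. The median range of the group means of a subunit gene was 0.44 in FEM, against 1.51 for all genes tested, and 2.06 in GEM, against 2.43 for all genes tested. The FEM count depended on the samples in the fit, since 24 genes were called when only FEM libraries were fitted and 21 after quantile normalization. The share of all genes called in these settings was not computed. Each gene had a single spread, estimated over both strains. The pooled SD of the median subunit gene was 0.11 in FEM and 0.30 in GEM. The FEM tests thus used a spread that also holds the GEM libraries, and an uncalled gene was not shown to be steady in FEM. Likewise the GEM tests used a spread that also holds the FEM libraries, which can make their p-values too small. In GEM, 31 of 33 genes had their lowest mean at 65 h, as had 11.8% of all genes tested, and 31 of 33 had their highest mean at 257 h, as had 43.3% of all genes tested. The exceptions were *rpn-6.2* and *pbs-1*, lowest at 41 and 49 h, and the ATPase genes *rpt-3* and *rpt-4*, highest at 137 h. At 65 h, all 3 GEM libraries lay below all 3 GEM libraries of 41 h for 31 of the 33 genes, which was so for 23.4% of all genes tested.

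**Figure D2:**
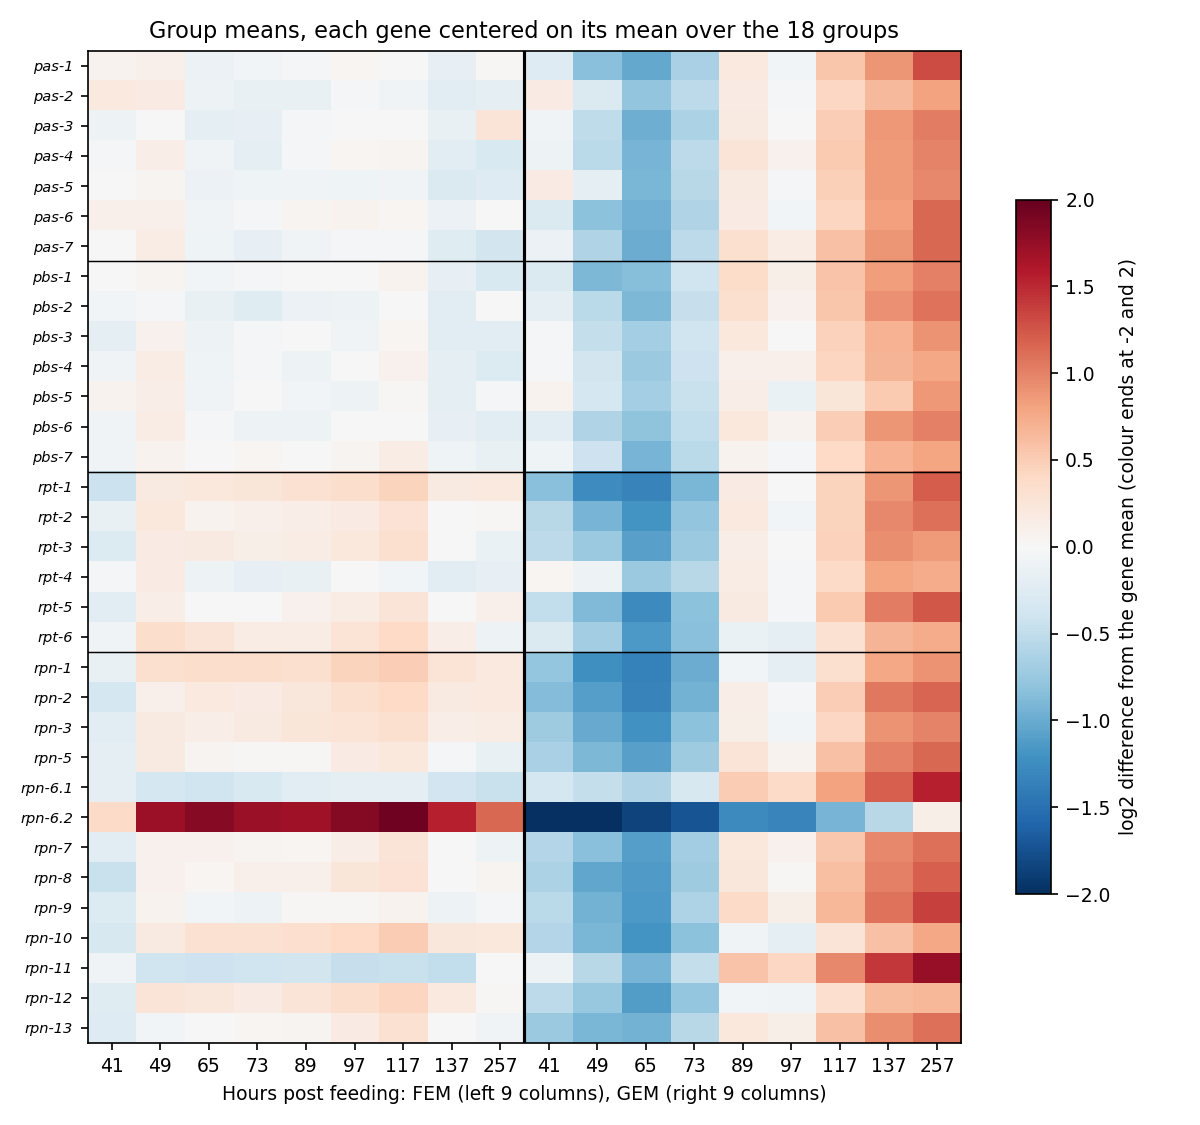
Group means of the 33 subunit genes (rows, in the order alpha subunits, beta subunits, ATPases and non-ATPases, separated by lines) at 9 ages in FEM (left) and GEM (right). Colour is the log2 difference from the mean of the gene over the 18 groups and ends at -2 and 2. GEM columns run from blue at 65 h to red at 257 h for nearly all genes, and *rpn-6.2* is the row that is red in FEM and blue in GEM.

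Between day 10 and day 1, every subunit gene was higher on day 10 in GEM. Day 1 is the mean of the 41 and 49 h groups. The 33 genes called higher and 0 called lower (also 0 at an unadjusted p under 0.05) stand beside 55.1% higher and 21.7% lower among all genes tested in GEM. The median difference was 1.60 for the subunit genes and 1.03 for all genes tested, and the day 10 libraries lay above all 5 day 1 libraries for 33 of 33 genes, as they did for 53.5% of all genes tested. The increase was larger in the 19S particle, with a median of 1.90 over its 18 genes other than *rpn-6.2*, than in the 20S particle, with a median of 1.32 over 14 genes.

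The deubiquitinase gene *rpn-11*, whose product cuts ubiquitin chains off the substrate, had levels of 13.29 and 13.43 in GEM on day 10, against 11.48, 11.53, 11.53, 10.62 and 11.51 on day 1. All day 1 libraries lay below both day 10 libraries, and the difference was 2.07 ± 0.20 (SE; adjusted p = 2.89e-11, limma). The ATPase gene *rpt-1* had 13.37 and 13.50 on day 10, against 11.37, 11.56, 11.28, 10.52 and 11.44 on day 1, a difference of 2.25 ± 0.22 (adjusted p = 2.76e-11, limma). The largest increases after that of *rpn-6.2* were those of *rpt-1*, of *rpn-2* (2.15 ± 0.19), a scaffold of the 19S base, and of *rpn-9* (4.30-fold), a subunit of the lid. The ubiquitin receptor genes *rpn-13* and *rpn-10* rose by 1.93 ± 0.18 and 1.52 ± 0.17.

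Among the catalytic subunits, *pbs-1* had levels of 13.39 and 13.40 in GEM on day 10, against 12.23, 12.22, 11.82, 10.83 and 12.15 on day 1. The day 1 value of 10.83 came from GEM at 49 h replicate 1, whose depth was the larger of its pair, and the difference was 1.60 ± 0.21 (adjusted p = 3.29e-08, limma). The other catalytic genes rose less, *pbs-2* by 1.44 ± 0.19 and *pbs-5* by 1.01 ± 0.17. The smallest increase of all was that of the ATPase gene *rpt-4* (0.77 ± 0.18, adjusted p = 0.000322, limma), whose exons share 103 bases with the neighbouring gene *rpoa-49*.

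The number of these calls depended on the scale. After centering each library on its median, 30 genes were called higher and 0 lower in GEM, beside 45.6% and 32.6% of all genes tested. After quantile normalization 21 were higher and 6 lower, beside 40% and 38.6%, with *pbs-5* at -0.04. The median subunit gene lay above the median gene tested by 0.57 as deposited, by 0.57 after centering and by 0.72 after quantile normalization. Leaving out any 1 of the 45 libraries left all 33 called. In a fit to the groups compared, adjusted p-values (limma) were larger, at 0.000241 for *rpn-11*, 0.000209 for *rpt-1* and 0.00485 for *pbs-1*. The oocyte and germline markers moved with the subunit genes in GEM: 11 of 11 oocyte and 9 of 9 germline markers were higher on day 10 than on day 1, with mean levels of 13.75 and 12.69 at 257 h, against 4.29 and 5.81 at 41 h. At 65 h, where the subunit genes were at their minimum, the oocyte and germline marker means were 9.86 and 8.80, above those at 41 h. The part of the germline in the levels of the subunit genes was not tested.

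In FEM the same comparison called no gene higher and 2 lower, *pas-7* and *pas-2*, where 28.9% of all genes tested were higher and 22.2% lower. Both encode alpha subunits of the 20S particle. For *pas-7* the levels were 10.98 and 10.78 on day 10, against a lowest, median and highest level of 11.22, 11.29 and 11.48 on day 1. The groups did not overlap, and day 10 likewise lay wholly below day 1 for 21.4% of all genes tested. The difference for *pas-7* was -0.44 ± 0.17 (adjusted p = 0.0337, limma). For *pas-2* it was -0.38 ± 0.16 (adjusted p = 0.0471, limma). These calls were fragile: *pas-2* was lost without any of several single libraries, both were lost when either FEM day 10 library was left out, when *pas-7* had an adjusted p of 0.0711 and 0.235, *pas-7* was lost without FEM at 49 h replicate 2 (adjusted p = 0.055), and both were lost with day 1 taken as 41 h alone. The median difference of the subunit genes was -0.07, while that of all genes tested was 0.26. The remaining 31 genes ranged from -0.35 ± 0.19 (*pas-4*) to 0.32 ± 0.21 (*rpt-1*), and were not called. The counts depended on the fit and the scale, with 4 higher and 8 lower in a fit to the groups compared. With day 1 as 41 h alone, 5 were higher and 0 lower. Quantile normalization gave 9 higher and 5 lower, beside 31.8% and 25.8% of all genes tested. Centering on the median gave 0 higher and 5 lower, beside 28.5% and 24%.

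**Figure D3:**
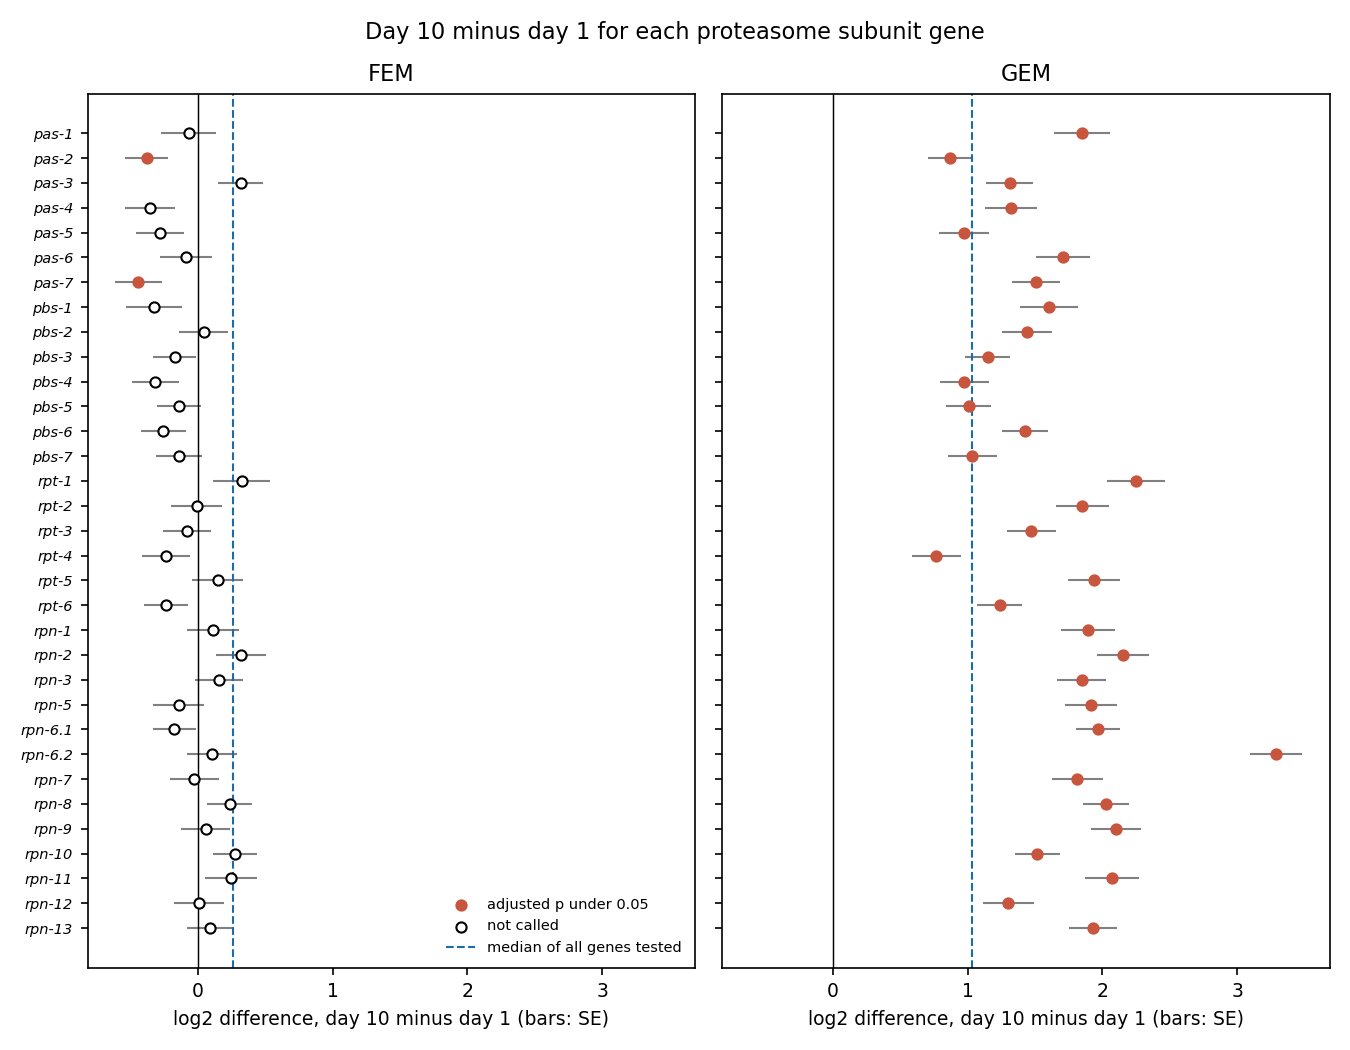
Log2 difference between day 10 and day 1 for each of the 33 subunit genes in FEM (left) and GEM (right), with standard errors. Filled points have an adjusted p under 0.05, and the dashed line is the median of all genes tested, 0.26 in FEM and 1.03 in GEM. The FEM points lie around 0 and all GEM points lie between 0.77 and 3.29.

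The difference between the strains in this change was itself tested. It was called lower in FEM than in GEM for 33 of 33 genes and higher for 0 (also 0 at an unadjusted p under 0.05), where 47.9% of all genes tested were lower and 14.5% higher. The median was -1.78 for the subunit genes and -0.84 for all genes tested. After *rpn-6.2* (-3.18 ± 0.27), the largest differences were those of the lid genes *rpn-6.1* (-2.14 ± 0.23, adjusted p = 7.25e-10, limma), *rpn-5* (-2.06 ± 0.27) and *rpn-9* (-2.05 ± 0.26). The smallest were those of *pas-3* (-0.99 ± 0.24), *rpt-4* (-1.01 ± 0.25) and *pbs-5* (-1.15 ± 0.23). Centering on the median gave 31 lower, beside 39.6% of all genes tested, and quantile normalization 19 lower, beside 32.8%. None was higher in either, beside 26.4% and 31% of all genes tested. After quantile normalization *rpn-10* was at 0.23 and *pbs-5* at 0.07, both uncalled. The comparison shares its libraries with the changes within each strain, so it is no separate measurement.

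On day 10 the FEM animals had lower levels than the GEM animals of every subunit gene but *rpn-6.2*. Of the 33 genes, 32 were called lower in FEM and 1 higher, where 40.4% of all genes tested were lower and 21.3% higher. The median difference was -1.09, against -0.34 for all genes tested. The range without *rpn-6.2* ran from -1.99 (*rpn-6.1*) to -0.56 (*rpn-10*), or from a 0.252-fold to a 0.677-fold level in FEM relative to GEM.

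For *rpn-6.1*, a scaffold of the lid, the day 10 levels were 10.91 and 10.85 in FEM and 12.71 and 13.03 in GEM, and the difference was -1.99 ± 0.19 (adjusted p = 3.46e-10, limma). For *rpn-11* they were 11.70 and 11.56 in FEM and 13.29 and 13.43 in GEM, with a difference of -1.73 ± 0.24 (adjusted p = 1.77e-07, limma). For *pbs-1* they were 12.21 and 11.96 in FEM and 13.39 and 13.40 in GEM, with a difference of -1.31 ± 0.25 (adjusted p = 3.47e-05, limma). In none of these did the libraries of the strains overlap. On day 10 both FEM libraries lay below both GEM libraries for 47.9% of all genes tested, and above them for 30.1%.

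The ubiquitin receptor gene *rpn-10*, also known for a role in the sex determination of the germline, differed least, with 11.79 and 11.34 in FEM and 12.10 and 12.15 in GEM. Its difference of -0.56 ± 0.20 (adjusted p = 0.015, limma) was lost without FEM day 10 replicate 2 (-0.34, adjusted p = 0.234) or GEM day 10 replicate 2 (-0.54, adjusted p = 0.0663), and turned to 0.44 (adjusted p = 0.00076, limma) after quantile normalization. The receptor gene *rpn-13* differed by -1.17 ± 0.21 (adjusted p = 1.66e-05, limma). The alpha subunit gene *pas-7* (-1.51 ± 0.21) and the lid gene *rpn-9* (-1.40 ± 0.22) had the largest differences after *rpn-6.1* and *rpn-11*. The catalytic genes *pbs-2* and *pbs-5* differed by -1.07 ± 0.22 and -0.91 ± 0.20. Centering on the median left 32 lower and 1 higher, beside 45.1% and 16.8% of all genes tested. Quantile normalization left 17 lower and 3 higher, beside 35.3% and 23%. It moved *pbs-2* and *pbs-5* to -0.28 and -0.06, neither of them called. Relative to the median gene tested, the median subunit gene was at -0.75 as deposited and after centering and at -0.12 after quantile normalization. At this age the means of the oocyte and germline markers were 10.14 and 10.58 in FEM and 13.75 and 12.69 in GEM, and their part in the difference was not tested.

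On day 1 the order of the strains was the other way on the deposited scale. Of the 33 genes, 23 were higher in FEM and 0 lower (also 0 at an unadjusted p under 0.05), where 45.5% of all genes tested were higher and 17.7% lower, and the median difference was 0.63, against 0.30 for all genes tested. The direction depended on the scale, with 1 higher and 24 lower after centering on the median and 17 higher and 6 lower after quantile normalization. Among all genes tested, 24.3% were higher and 54.8% lower after centering, and 28.6% and 50.2% after quantile normalization. The median of all genes tested moved to -0.59 and -0.45 in these, and the median subunit gene lay 0.33 and 0.63 above it, against 0.33 as deposited. The count also depended on age within the day, with 6 genes higher at 41 h alone and 29 at 49 h alone.

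The 19S genes stood out within the complex on day 1, with 16 of 19 called higher in FEM and a median of 0.65, whereas 7 of 14 of the 20S genes were called and their median was 0.29. The base scaffold and receptor gene *rpn-1* had levels of 12.38, 12.59 and 12.98 in FEM (lowest, median and highest of 6 libraries), against 11.82, 11.80, 11.73, 10.94 and 11.74 in GEM. The strains did not overlap, with FEM above, as for 33.6% of all genes tested. The difference was 1.08 ± 0.14 (adjusted p = 6.82e-08, limma), or 0.20 after centering on the median (adjusted p = 0.0896, limma). The next were *rpt-1* (0.91 ± 0.16) and *rpn-2* (0.86 ± 0.14), which were at 0.03 and -0.03 after centering and not called there.

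Of the genes with particular functions, *rpn-10* (0.68 ± 0.12), *rpn-13* (0.67 ± 0.13), *pbs-1* (0.61 ± 0.15) and *pbs-2* (0.33 ± 0.14) were called higher in FEM on day 1. All of them turned below 0 after centering, at -0.21, -0.21, -0.27 and -0.56, and *pbs-2* was at -0.06 after quantile normalization. The genes *pbs-5* (0.24 ± 0.12), *rpn-6.1* (0.15 ± 0.12) and *rpn-11* (0.10 ± 0.14) were not called. Without GEM at 49 h replicate 1, whose subunit mean was 10.60 beside 11.19 in the other library of its group, 18 genes were called higher, the lowest count without any 1 library, and *pbs-1* and *pbs-2* were lost at 0.29 (adjusted p = 0.0748) and 0.07 (adjusted p = 0.658).

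Averaged over the 9 ages, the strains hardly differed in the complex as a whole, with a median difference of 0.00, but the members differed from each other. There were 10 genes higher in FEM and 7 lower, where 31.1% of all genes tested were higher and 38.6% lower. All 10 higher genes belonged to the 19S particle (10 of 19, against 0 of 14 in the 20S particle), and after *rpn-6.2* (3.08 ± 0.07) they were led by *rpn-1* (0.58 ± 0.07), *rpn-10* (0.48 ± 0.06) and the lid gene *rpn-12* (0.37 ± 0.07). The lower genes were led by *rpn-11* (-0.67 ± 0.07, adjusted p = 4.94e-10, limma) and *rpn-6.1* (-0.60 ± 0.06, adjusted p = 6.66e-11, limma), followed by *pas-5* (-0.21 ± 0.07) and *pbs-2* (-0.20 ± 0.07). The genes *pbs-1* (-0.10 ± 0.08), *pbs-5* (-0.05 ± 0.06) and *rpn-13* (0.04 ± 0.07) were not called. On a scale centered on the library medians only *rpn-6.2* was higher and 31 genes were lower, with *rpn-1*, *rpn-10* and *rpn-12* at -0.03, -0.13 and -0.24. Among all genes tested, 16.6% were higher and 73.6% lower there. Quantile normalization gave 9 higher and 16 lower, beside 22% higher and 63.4% lower among all genes tested. The median subunit gene lay above the median gene tested by 0.09 as deposited and after centering, and by 0.37 after quantile normalization. With all ages weighted alike, this average joins the day 1 and day 10 differences of opposite sign on the deposited scale.

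The balance between the 19S and the 20S genes can be read within each library, where a factor common to all genes of the library cancels. The mean of the 18 19S genes minus the mean of the 14 20S genes was -0.10 in FEM at 41 h and then 0.13, 0.27, 0.26, 0.26, 0.30, 0.34, 0.31 and 0.26 from 49 to 257 h. In GEM it was -0.33, -0.19, -0.12, -0.09, 0.09, 0.12, 0.15, 0.27 and 0.22 from 41 to 257 h. The 19S genes were thus lowest relative to the 20S genes at the start of adulthood in both strains, and the ratio reached its later level by 65 h in FEM and only by 137 h in GEM.

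These values were tight between libraries, with an SD pooled over the groups of 0.02 in FEM and 0.04 in GEM, while the mean of all subunit genes had a pooled SD of 0.09 in FEM and 0.28 in GEM. At 41 h the 3 FEM libraries were at -0.12, -0.06 and -0.11 and the 3 GEM libraries at -0.35, -0.32 and -0.31, without overlap. At 257 h the 2 FEM libraries were at 0.28 and 0.24 and the 2 GEM libraries at 0.26 and 0.18, and they overlapped. GEM at 89 h replicate 3 had a subunit mean of 12.34, beside 11.65 and 11.40 in the others of its group, and the highest level of the 3 in 33 of 33 genes, but its 19S minus 20S value of 0.12 lay close to their 0.10 and 0.05. The oocyte markers of that library averaged 13.89, beside 12.61 and 12.39 in the others.

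**Figure D4:**
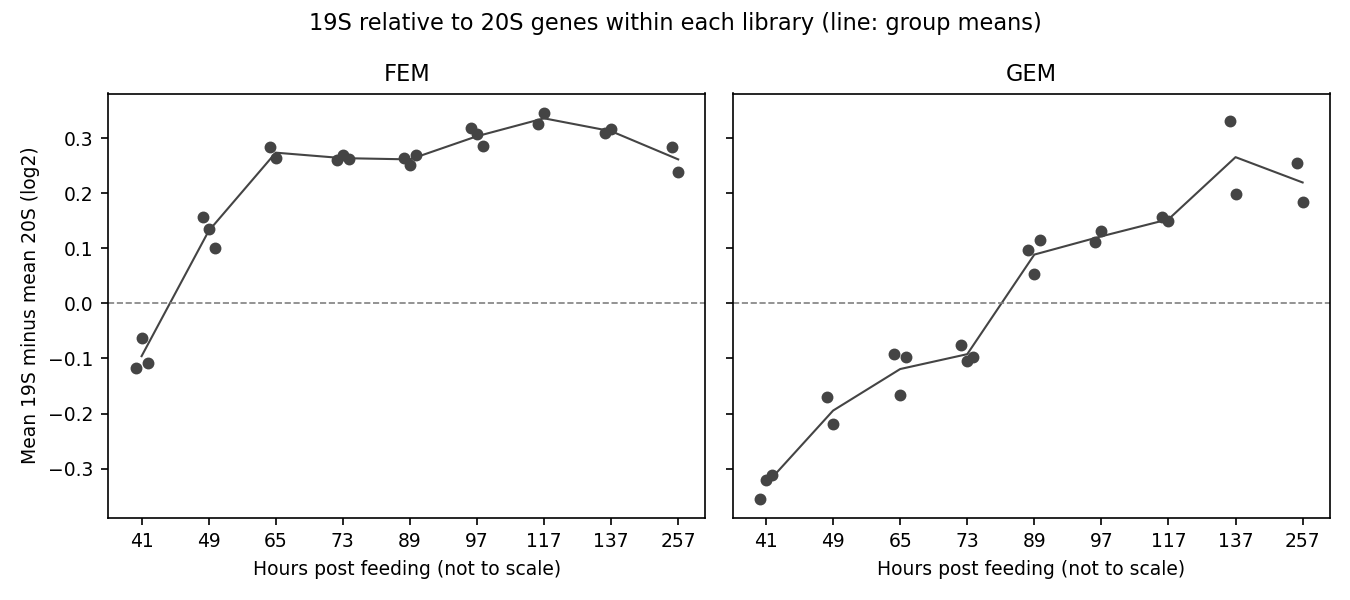
Mean level of the 18 genes of the 19S particle (without *rpn-6.2*) minus the mean level of the 14 genes of the 20S particle in each library, by hours post feeding, in FEM (left) and GEM (right), with a line through the group means. FEM lies at -0.10 at 41 h and between 0.26 and 0.34 from 65 h on, and GEM runs from -0.33 at 41 h to 0.27 at 137 h.

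The 19S and 20S genes also differ in length, with a median exonic length of 1483.5 bases (855 to 3171) in the 18 19S genes and 880.5 bases (801 to 1059) in the 20S genes. Across 32 genes, which share all their libraries, the difference between FEM and GEM on day 1 had a Pearson correlation of 0.61 with the log2 of length, and the difference between day 10 and day 1 in GEM one of 0.60. Over all genes tested with a known length, the median difference between FEM and GEM on day 1 was 0.28 for those over 1059 bases and 0.30 for the shorter ones, and the median difference between day 10 and day 1 in GEM was 1.00 and 1.08. The length classes lay further apart in some other comparisons. Longer and shorter genes had medians of -0.45 and -0.12 between FEM and GEM on day 10, and of 0.11 and 0.24 at 49 h against 41 h in FEM. The part of length in the balance between the particles was not tested.

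From 41 to 49 h, subunit genes were called higher in FEM in about the share seen among all genes tested. At 49 h, 7 genes were higher than at 41 h in FEM and 0 lower (also 0 at an unadjusted p under 0.05), where 23.2% of all genes tested were higher and 12.6% lower. The 7 were *rpn-6.2* (1.32 ± 0.19), *rpt-1* (0.61 ± 0.21), *rpn-8* (0.53 ± 0.17), *rpn-10* (0.50 ± 0.16), *rpn-12*, *rpt-3* and *rpt-6*, all of the 19S particle, a difference between the particles that was not tested. The product of *rpn-8* forms a pair with the deubiquitinase RPN-11 in the lid. For *rpn-10* the levels were 11.56, 11.71 and 11.34 at 49 h, against 11.01, 11.01 and 11.08 at 41 h (adjusted p = 0.0144, limma). The other genes named by function were not called, with *rpn-11* at -0.32 ± 0.19, *rpn-6.1* at -0.16 ± 0.16, *rpn-13* at 0.19 ± 0.17, *pbs-1* at 0.06 ± 0.21, *pbs-2* at 0.03 ± 0.18 and *pbs-5* at 0.07 ± 0.16. The number of calls was not stable, falling to 1 without FEM at 49 h replicate 2. After centering on the median 2 were higher and 2 lower, beside 17.9% and 19.4% of all genes tested. After quantile normalization 4 were higher and 3 lower, beside 20.4% and 21%. A fit to the 2 groups alone gave 17 higher and 1 lower.

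In GEM, 1 gene was higher at 49 h than at 41 h, *rpn-6.2* (0.76 ± 0.21, adjusted p = 0.00835, limma), and 0 were lower, where 11.9% of all genes tested were higher and 8.07% lower. The other 32 differences were all below 0, with a median of -0.38 over all 33, and 14 of the 33 were below 0 at an unadjusted p under 0.05. The lowest were *pbs-1* (-0.60 ± 0.23), *pas-1* (-0.59 ± 0.23) and *pas-6* (-0.53 ± 0.22). The libraries at 49 h lay far apart, and without replicate 2, which left replicate 1 alone with a spread taken from the other groups, 16 genes were called lower. Without replicate 1 the call of *rpn-6.2* was lost (adjusted p = 0.0701). The difference between the strains in this step was not tested.

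From day 5 to day 10 no subunit gene was called in either strain. In FEM 0 genes were higher and 0 lower, where 6.71% of all genes tested were higher and 10.3% lower, and 1 gene, *rpn-11* (0.50 ± 0.24, adjusted p = 0.16, limma), had an unadjusted p under 0.05. Its FEM levels were 11.70 and 11.56 on day 10, against 11.15 and 11.09 on day 5. In GEM 0 were higher and 0 lower, where 3.53% of all genes tested were higher and 4.61% lower, and 1 gene, *rpn-6.2* (0.67 ± 0.23, adjusted p = 0.0665, limma), had an unadjusted p under 0.05. In GEM 31 of the 33 differences were above 0, with a median of 0.16 beside 0.12 for all genes tested. Standard errors were 0.19 to 0.26. After quantile normalization 3 genes were called higher in FEM, beside 12.4% of all genes tested. After centering on the median 2 were called higher in FEM and 1 in GEM, beside 9.36% and 4.71%.

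The paralogs *rpn-6.1* (chromosome III, 6959110 to 6962001, minus strand, WBcel235) and *rpn-6.2* (chromosome III, 8999817 to 9001999, minus strand) encode versions of the same lid subunit and differed in strain and age. The levels of *rpn-6.2* at 41 h were 9.22, 9.52 and 9.57 in FEM and 5.27, 5.76 and 5.47 in GEM. At 65 h they were 10.89 and 10.83 in FEM and 7.29, 6.97 and 7.34 in GEM, and at 257 h 10.46 and 9.94 in FEM and 8.96 and 9.38 in GEM. The strains did not overlap at any of these ages. Among all genes tested, FEM lay wholly above GEM for 33.6% on day 1 and for 30.1% on day 10, and the share at 65 h was not computed. The gap in *rpn-6.2* narrowed with age in adults, with a difference of 4.22 ± 0.14 on day 1 (18.6-fold, adjusted p = 4.88e-23, limma) and of 1.03 ± 0.23 on day 10 (2.04-fold, adjusted p = 0.000207, limma). In GEM it was 9.78-fold higher on day 10 than on day 1 (3.29 ± 0.19, adjusted p = 1.93e-16, limma), and in FEM the difference of 0.11 ± 0.19 was not called (adjusted p = 0.65).

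By contrast *rpn-6.1* had group means from 10.88 to 11.13 in FEM, with no age effect called there (limma F, adjusted p = 0.785). In GEM it ran from 10.72 at 65 h to 12.87 at 257 h. Per kilobase of exon, *rpn-6.2* made up 24.6% ± 2.1 (SD, n = 3) of the summed counts of both genes in FEM at 41 h and 39.8 to 50.4% in the later FEM groups, against 2.30% ± 0.34 (SD, n = 3) in GEM at 41 h and 4.24 to 8.38% in the later GEM groups. At 49 h in FEM the share was 47.6% ± 0.75 (SD, n = 3). Reads that fit both genes could be counted for either, which was not tested.

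**Figure D5:**
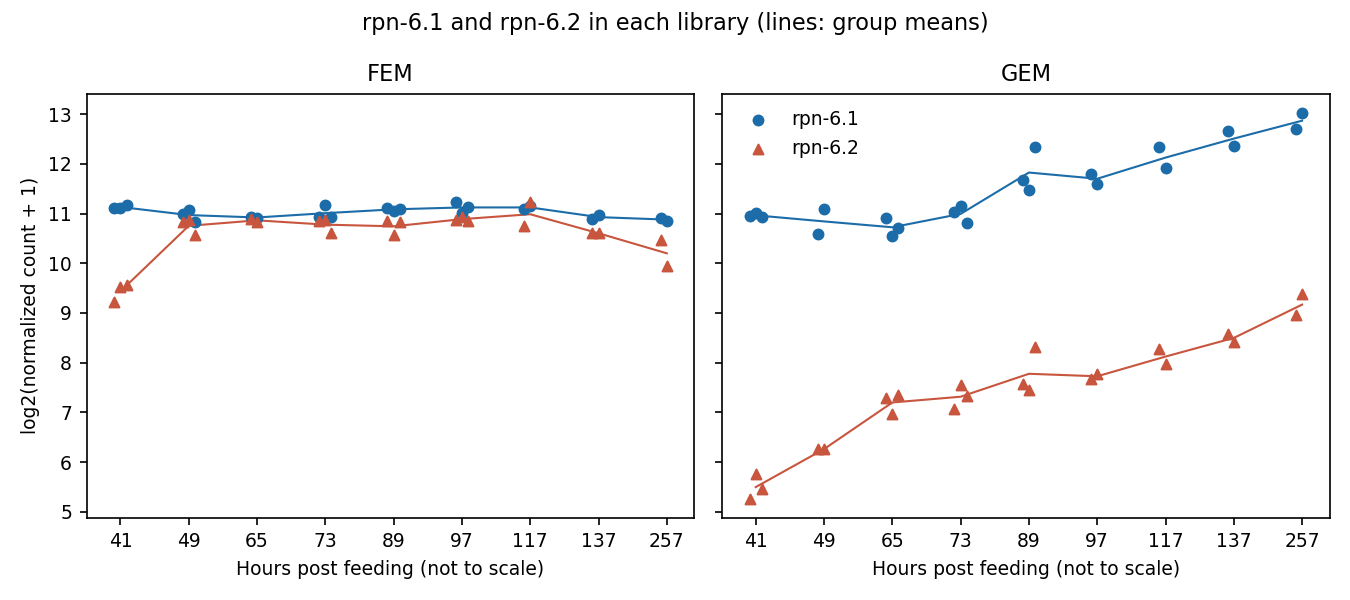
Levels of *rpn-6.1* (circles) and *rpn-6.2* (triangles) in each library as log2(normalized count + 1), by hours post feeding, in FEM (left) and GEM (right), with lines through the group means. In FEM the genes lie close together from 49 h on, and in GEM *rpn-6.2* has a mean of 5.50 at 41 h and stays at least 3.52 below *rpn-6.1* in the group means.

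The sperm markers moved with *rpn-6.2* in both strains, though not they alone. Their mean level was 8.56 in FEM at 41 h and 9.98 to 10.86 in the later FEM groups, and 2.67 in GEM at 41 h and 3.73 to 6.49 in the later GEM groups, highest at 257 h as *rpn-6.2* was. In FEM 9 of 9 sperm markers were higher at 49 h than at 41 h, as were 3 of 11 oocyte and 1 of 9 germline markers. Among all genes tested 23.2% were. At 49 h in GEM, 6 of 9 sperm, 11 of 11 oocyte and 8 of 9 germline markers were higher than at 41 h. On day 10 in GEM, all markers of these lists were higher than on day 1, as were 55.1% of all genes tested. The part of sperm or other germline cells in the level of *rpn-6.2* was not tested. The group means of *rpn-6.2* had a correlation of 0.36 with the mean of the other subunit genes over the 18 groups, which share the libraries. The other genes had 0.82 to 0.99. Within a strain, over 9 ages, the correlation of *rpn-6.2* was 0.79 in FEM and 0.77 in GEM. The other genes had -0.63 to 0.98 in FEM and 0.94 to 1.00 in GEM.

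The deubiquitinase gene *rpn-11* had the lowest correlation with the rest in FEM. Its FEM levels were 11.53, 11.53 and 11.58 at 41 h, between 11.09 and 11.44 in all FEM libraries from 49 to 137 h, and 11.70 and 11.56 at 257 h. All FEM libraries from 49 to 137 h thus lay below those of 41 and 257 h. The share of all genes tested with such an order was not computed. The correlation of *rpn-11* with the mean of the others over the 9 FEM ages was -0.63, while over the 9 GEM ages it was 1.00. No age effect was called for it in FEM (limma F, adjusted p = 0.311).

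Levels can be compared between genes per length, as normalized counts per kilobase of exon. On that scale *pbs-1* was the highest subunit gene in all 18 groups, with 5294 ± 635 in FEM on day 10 (SD, n = 2) and 13107 ± 93 in GEM on day 10 (SD, n = 2). Apart from *rpn-6.2*, the highest gene exceeded the lowest by 4.63 to 5.79 times across the groups. The lowest was *rpt-4*, *rpn-6.1* or *rpn-2*. In GEM the highest 19S gene was *rpn-11* at 41 and 49 h and from 89 h on, at 8519 ± 602 on day 10 (SD, n = 2), against 2565 ± 181 in FEM on day 10 (SD, n = 2), where *rpt-1* was the highest 19S gene.

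Lists of genes that work with the proteasome were examined alongside. Their counts stand beside 55.1% of all genes tested higher on day 10 than on day 1 in GEM, 28.9% higher and 22.2% lower in FEM, and 40.4% lower in FEM than in GEM on day 10. Of 11 proteasome-associated genes, 11 were higher on day 10 than on day 1 in GEM, led by *ecps-2* (3.41 ± 0.79), the akirin gene *akir-1* (3.40 ± 0.23) and *ecps-1* (2.47 ± 0.21). In FEM 2 were higher, *aip-1* (0.75 ± 0.24) and *akir-1* (0.67 ± 0.23), and 1 lower, *psme-3* (-1.02 ± 0.22), the homolog of an activator that caps the core particle in place of the 19S particle. On day 10, 9 of 11 were lower in FEM than in GEM, led by *psme-3* (-1.95 ± 0.28), the deubiquitinase gene *usp-14* (-1.61 ± 0.27) and *ecps-1* (-1.57 ± 0.25).

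Of 11 genes of ubiquitin and of the CDC-48 unfoldase and its partners, 10 were higher on day 10 than on day 1 in GEM (55.1% of all genes tested), led by *cdc-48.3* (2.52 ± 0.24) and *ufd-3* (2.50 ± 0.23), and 1 in FEM, *uba-1* (0.51 ± 0.15), which encodes the ubiquitin-activating enzyme. On day 10, 11 of 11 were lower in FEM than in GEM. Of 5 genes of the SKN-1A pathway, 5 were higher on day 10 in GEM. In FEM 2 of them were higher, *skn-1* (0.89 ± 0.16, adjusted p = 1.82e-05, limma) and *ddi-1* (0.69 ± 0.17, adjusted p = 0.0014, limma), whose products include the transcription factor and the protease that activates it. Isoforms of a gene were merged, so the *skn-1* level is not that of SKN-1A alone. The subunit genes called higher in FEM were 0 in the same fit, 4 in a fit to the groups compared, 5 with day 1 as 41 h alone and 9 after quantile normalization. On day 10, 5 of 5 were lower in FEM than in GEM. For the COP9 signalosome, a complex built like the proteasome lid, 6 of 6 genes were higher on day 10 in GEM and 1 in FEM, *csn-2* (0.52 ± 0.17), and 6 of 6 were lower in FEM than in GEM on day 10.

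Overlapping gene models limit some values, since reads were counted without regard to strand. Of the 33 genes, 11 share exonic bases with a neighbour, most of all *rpn-7* with 394 of 1907 bases shared with *nemt-1*, and *rpn-9* with 140 of 1325 shared with T06D8.12. The other 22 share none.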

How the data were processed

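The authors trimmed the reads with Trim Galore 0.4.4, mapped them to WBCel235 with HISAT2 2.1.0 as non-directional single-end reads, took read counts per gene from SeqMonk with the isoforms of a gene merged, and normalized the counts with DESeq2. Each value that the authors deposited is the natural log of a normalized count to which 1 was added, rounded to 2 decimals. The base of the logarithm is not given in the sources used here and was read from the values, since low values of each of the 45 libraries fell on whole multiples of 1 step when taken as natural logarithms, within the rounding. That step also gave the estimated depth, the sum of the back-transformed values divided by it. Because of the rounding, reads of highly expressed genes could not be recovered, and no count test was used. The number of columns left unmapped was 0.

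Natural logs were turned into log2 values. limma 3.58.1 in R 4.3.3 was fitted to 16925 genes (mean deposited value of at least 1) with 1 mean per group, contrasts between groups, empirical Bayes moderation with a trend, and Benjamini-Hochberg adjustment over all genes tested at 0.05. The procedure was tested on simulated data. The F test used the 8 contrasts with 41 h. Replicates were numbered in accession order. The paper describes its replicates as biological. Labels name no batch and no culture, so p-values measure the spread between these libraries, whatever separated them. Lengths and overlaps came from Ensembl release 115 on WBcel235, to which 24885 of 25985 names were matched. Python 3.11.15, pandas 2.3.3, numpy 2.4.6 and matplotlib 3.10.9 were used.

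The members, the gene lists and the markers were chosen with earlier results of these data known. Given with full statistics were, in each comparison, up to 4 called members with the largest positive and up to 4 with the largest negative difference, and *pbs-1*, *pbs-2*, *pbs-5*, *rpn-6.1*, *rpn-6.2*, *rpn-10*, *rpn-13* and *rpn-11*, up to 3 genes of each related list, and the 5 other genes closest in pattern to the members, of which 1 is not reported here. Alternatives were no filter or a minimum of 3, a pseudocount of 8, centering on library medians, quantile normalization, no trend, fits to the groups compared, day 1 as 41 or 49 h, and leaving out each library.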

Additional observations from a re-analysis of the deposited data

Results flagged for a closer look

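The change between day 10 and day 1 differed between the strains, by the test of the difference itself, in 33 of the 33 subunit genes, all lower in FEM. On the log2 scale the differences of the genes named by the rule were -3.18 for *rpn-6.2*, -2.14 for *rpn-6.1*, -2.06 for *rpn-5*, -2.05 for *rpn-9*, -1.93 for *pbs-1*, -1.84 for *rpn-13*, -1.83 for *rpn-11*, -1.40 for *pbs-2*, -1.24 for *rpn-10* and -1.15 for *pbs-5*. The median over all genes tested was -0.84. Over the alternatives, the highest adjusted p (limma) was 0.249 for *pbs-2*, 0.701 for *pbs-5* and 0.113 for *rpn-10*, each after quantile normalization, and at most 0.000772 for the other genes named here. No group held enough libraries to ask whether 1 of them was an outlier.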

How the results depend on the processing

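Counts are of the 33 subunit genes. For contrasts, shares of all genes tested after centering and quantile normalization stand above, except at 49 h against 41 h in GEM. There they were 13.4% higher and 8.52% lower after centering, and 9.85% higher and 8.44% lower after quantile normalization. Centering on library medians gave 1 higher and 31 lower between FEM and GEM over the 9 ages, 1 higher and 24 lower on day 1, 5 lower on day 10 against day 1 in FEM, 2 higher in FEM and 1 higher in GEM on day 10 against day 5, 2 higher and 2 lower in FEM and 6 lower in GEM at 49 h against 41 h, and 7 with an age effect in FEM. It turned *rpn-1* (-0.033), *rpn-10* (-0.13) and *rpn-12* (-0.24) over the 9 ages, and *pbs-1* (-0.27), *pbs-2* (-0.56), *rpn-10* (-0.21), *rpn-13* (-0.21) and *rpn-2* (-0.028) on day 1. Quantile normalization gave 16 lower between FEM and GEM over the 9 ages, 6 lower on day 1, 3 higher and 17 lower on day 10, 9 higher and 5 lower on day 10 against day 1 in FEM, 21 higher and 6 lower in GEM, 19 lower for the difference between the strains, 3 higher on day 10 against day 5 in FEM, 4 higher and 3 lower in FEM and 1 lower in GEM at 49 h against 41 h, and 21 with an age effect in FEM. It turned *pbs-2* on day 1 (-0.059), *rpn-10* on day 10 (0.44), *pbs-5* in GEM on day 10 against day 1 (-0.042), and *pbs-5* (0.068) and *rpn-10* (0.23) in the difference between the strains. Fits to the groups compared gave 4 higher and 8 lower on day 10 against day 1 in FEM, 17 higher and 1 lower in FEM and 0 higher in GEM at 49 h against 41 h, and 24 with an age effect in FEM. Day 1 as 41 h gave 6 higher in FEM than in GEM, and 5 higher and 0 lower on day 10 in FEM. Without a filter 1 was lower on day 10 against day 1 in FEM and 4 were higher at 49 h against 41 h in FEM, and without a trend 1 was lower on day 10 against day 1 in FEM. The cause of these changes was not tested. Leaving out each library gave 8 to 12 higher and 5 to 11 lower (11 without GEM at 89 h replicate 2) between the strains over the 9 ages, 18 to 28 higher on day 1, 29 to 32 lower on day 10, 0 to 1 higher (1 without GEM at 89 h replicate 3) and 0 to 2 lower on day 10 against day 1 in FEM, 0 to 1 higher on day 10 against day 5 in GEM (1 without GEM at 89 h replicate 3), 1 to 10 higher in FEM and 0 to 1 higher and 0 to 16 lower in GEM at 49 h against 41 h, and 2 (without FEM at 41 h replicate 1) to 8 (without GEM at 89 h replicate 3) with an age effect in FEM. Where this left 1 library in a group, that library was assumed to vary like the other groups. Of 54 results on genes named by the rule, 30 kept direction and call under every alternative, and of their 2862 alternative values, most of them from leaving out 1 library, 2784 did. No paired analysis was possible because the labels carry no replicate numbers that groups share, and the serial numbers in the sample titles differ between all 45 samples and are given no meaning there.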

Other observations

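Among the other genes whose 18 group means had the highest Pearson correlations with the mean of the subunit genes were *eif-2D* (0.994), F44B9.5 (0.986), Y105E8A.2 (0.986) and *nsf-1* (0.986). *nsf-1* is named for a factor of vesicle fusion. Its level was 10.65 in FEM and 11.55 in GEM at 257 h, and 10.63 in FEM and 9.57 in GEM at 65 h. The groups share their libraries and their scaling, so these correlations are a description.

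In some of the 9 groups with 3 libraries, the subunit genes of 1 library lay mostly on the same side of the others. How all genes tested lay in these groups was not examined. In FEM at 41 h the pattern was weaker, with replicates 1, 2 and 3 the highest of 3 in 2, 11 and 17 genes. In FEM at 49 h, replicate 2 was the highest of 3 in 32 of 33 genes, and in GEM at 65 and 73 h 1 library was the lowest of 3 in 32 of 33 genes. The pooled SD of the median subunit gene was 0.11 in FEM and 0.30 in GEM, against 0.23 and 0.40 for the median gene tested.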
